A study of Mus musculus with 32 samples.

Results

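The 9 mesenchymal transition regulators Snai1, Snai2, Twist1, Twist2, Zeb1, Zeb2, Cdh1, Cdh2 and Vim were followed in YUMM3.3 cells, a Braf mutant mouse melanoma line. They were chosen by name, through the Ensembl identifier that the mouse annotation gives each symbol. A row was found for 8 of them among the 12451 genes of the count table, and these 8 passed the filter on low counts in every fit. Every gene of the table was seen in 4 or more samples, and Cdh1 had no row there, so that it was not analysed here. The 32 samples were wells in 8 groups of 4, which received no factor, Activin-A (at 40 ng/ml), IFN-γ (at 20 ng/ml) or both together and were harvested at 4 hrs or at 12 hrs. These are the doses of the labels and methods, and some figure legends of the study name a higher dose of Activin-A. All wells held the same cell line in the same culture medium, and the untreated wells of a time point were the controls. As the wells came from a single line, p-values measure only the spread between wells, which may be technical. In bulk samples such as these, fewer cells of a type and less RNA per cell cannot be told apart.

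In an epithelial-to-mesenchymal transition, cells give up cell-cell junctions and gain motility. Snai1 and Snai2 are zinc finger repressors, Twist1 and Twist2 are basic helix-loop-helix factors, and Zeb1 and Zeb2 are zinc finger and homeodomain factors, and members of each family lower transcription of Cdh1, which encodes E-cadherin. Cdh2 (N-cadherin) and Vim (vimentin, an intermediate filament) are the classical mesenchymal products. In the melanocyte lineage, Snai2 and Zeb2 are known from differentiated cells, whereas Twist1 and Zeb1 are tied to dedifferentiated and invasive melanoma cells. Activin-A acts through Smad2 and Smad3, the route by which TGF-β induces Snai1 in epithelial cells, and IFN-γ acts through Jak kinases.

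Total counts ranged from 654539 to 1455074 per well, with a median of 988019.5. Both treatments were seen in their direct targets: at 4 hrs Irf1 rose with IFN-γ (log2FC 4.22, SE 0.09) and Ccn2 with Activin-A (log2FC 1.77, SE 0.11), by edgeR's quasi-likelihood test. The 7 melanocyte and melanoma markers all had rows and summed to between 321 and 451 CPM per well, although Mitf, the master regulator of the lineage, had only 2 to 13 counts per well. None of the 4 keratinocyte or 3 endothelial markers had a row. Of the 6 fibroblast markers 4 had rows, summing to between 15.8 and 38.0 CPM, with Dcn at a median of 0. The leukocyte markers Ptprc and Cd68 peaked at 5 and 13 counts. Replicate 1 of Activin-A at 4 hrs stood apart from its group: it was the deepest well, 2.14% of its counts were mitochondrial against 1.08% to 1.54% elsewhere, and its count chi-square per gene against the other wells of its group was 2.45 to 2.89, compared with 1.16 to 1.54 for the remaining of the 48 replicate pairs.

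The regulators differed in how far their levels moved between groups. Levels are CPM normalized by TMM, a scaling of totals, over all 32 wells, and as counts from transcript 3′ ends they are compared within a gene only. The highest group mean was 2.66 times the lowest for Snai2, 1.89 times for Snai1, 1.48 times for Twist1 and 1.45 times for Zeb1. The same ratio was 1.30 for Zeb2, 1.28 for Twist2, 1.26 for Cdh2 and 1.1 for Vim. When the 8 groups were ordered by mean, neighbouring groups overlapped in their wells throughout, apart from 1 step each in Twist1 and Vim.

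**Figure D1:**
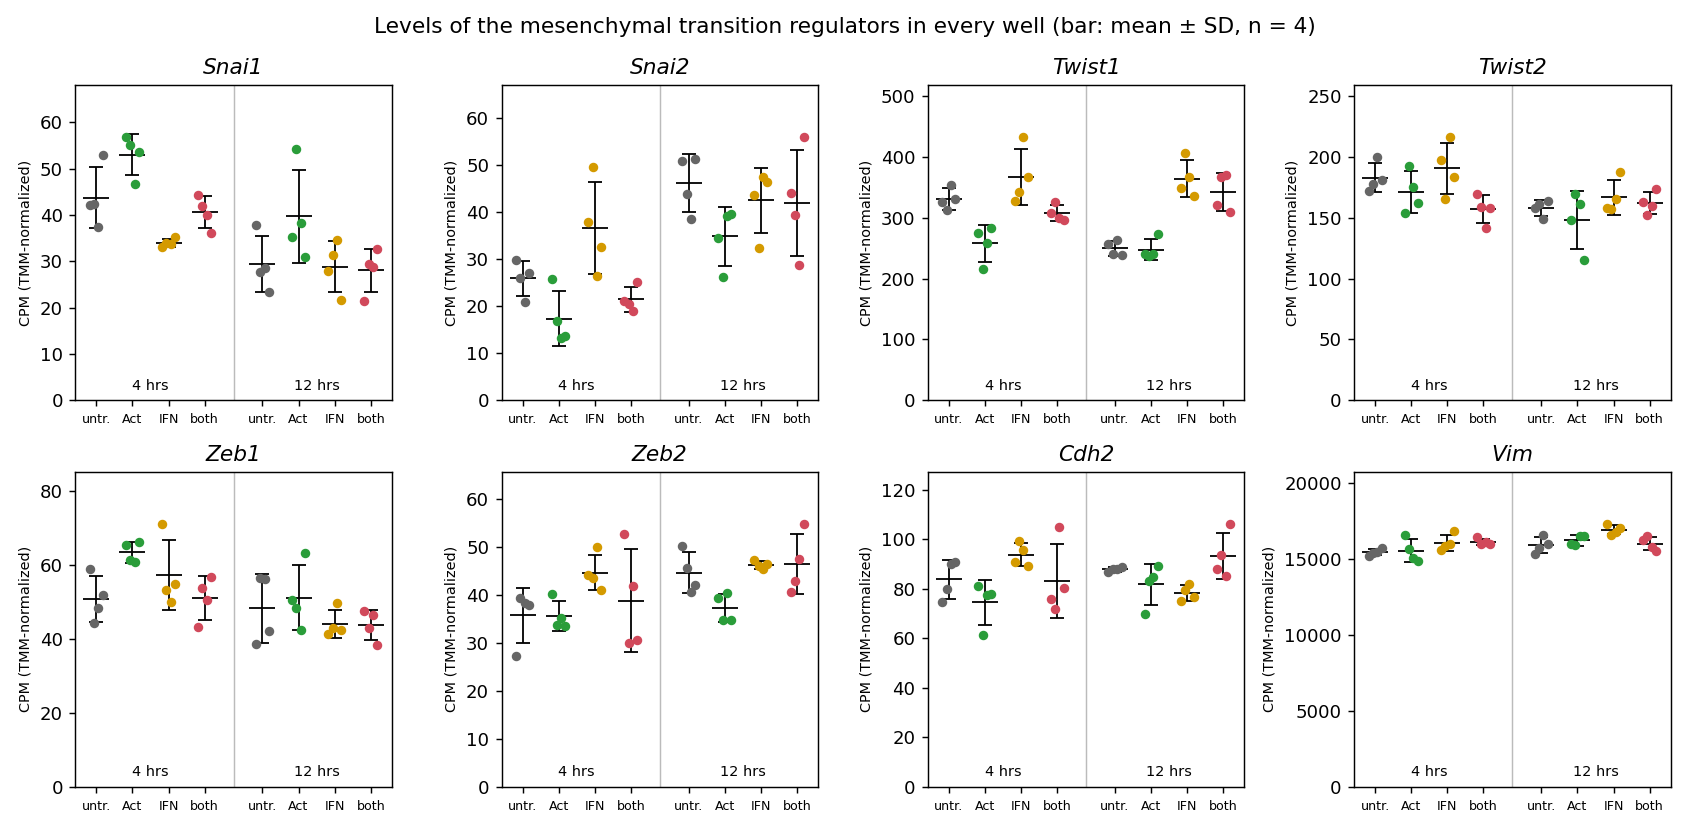
Level of each regulator (CPM, vertical axis from 0) in every well, by treatment (untr., untreated; Act, Activin-A; IFN, IFN-γ; both, both factors) and time, with the mean ± SD of 4 wells as bars. Twist1 lies between 310.0 and 407 CPM in the wells with IFN-γ at 12 hrs, with or without Activin-A, and between 237 and 273 CPM in the other wells of that time, while Vim stays between 14863 and 17280.0 CPM.

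The design asked how each factor changed expression at each time and whether it did so in the presence of the other. Differentially expressed genes (DEGs) had an adjusted p under 0.05 in edgeR's test over all genes. Over 23 comparisons, many of which share wells, 14 of 184 values of the 8 regulators passed it, 8 of them from Twist1, 5 from Snai2 and 1 from Snai1. The 23 include averaged effects and contrasts of times within treated cells that were added after seeing the data. Those added contrasts gave the only call of Snai1 and some of the calls of Twist1 and Snai2. Over the same 23 comparisons 4.88% of all values of tested genes passed, 10251 of 210188, and as the comparisons share wells and 3 genes gave all the calls, no more is read from the total. Twist2, Zeb1, Zeb2, Cdh2 and Vim passed in none of the 23, although 4 values of Twist2, 5 of Zeb1, 1 of Zeb2, 5 of Cdh2 and 2 of Vim had an unadjusted p under 0.05. With Activin-A against untreated cells at 4 hrs 1 of 8 regulators was a DEG (Twist1, lower), where 1.64% of all tested genes were called, 0.591% lower, and with both factors against IFN-γ at 4 hrs 1 of 8 (Snai2, lower), against 0.810% of all genes, 0.252% lower. With IFN-γ at 12 hrs the regulators' share was again 1 of 8 (Twist1, higher) beside 9.25% of all genes, 6.43% higher, with both factors against Activin-A at 12 hrs 1 of 8 (Twist1) beside 9.62%, and with both factors against untreated at 12 hrs 1 of 8 (Twist1) beside 9.84%. In untreated cells, 2 of 8 differed between 12 hrs and 4 hrs (Snai2 higher, Twist1 lower), beside 4.90% of all genes.

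In 5 other comparisons of treatments within a time point, edgeR called 0 of 8 regulators and DESeq2's Wald test called 0. These were IFN-γ at 4 hrs, where 5.06% of all genes were called and 2 regulators had an unadjusted p under 0.05, both factors against Activin-A at 4 hrs (6.07% and 3 regulators), and both factors against untreated at 4 hrs (7.29% and 1 regulator). The others were Activin-A at 12 hrs (2.41% and 2 regulators) and both factors against IFN-γ at 12 hrs (1.03% and 2 regulators), where DESeq2 gave no adjusted p for 4 of the 8. Over the 8 regulators the median log2FC with Activin-A was -0.05 at 4 hrs and -0.05 at 12 hrs, where the median over all genes was -0.0017 and -0.0031. With IFN-γ the regulators' median was 0.16 at 4 hrs and -0.03 at 12 hrs, where that of all genes was -0.0066 and -0.0098.

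**Figure D2:**
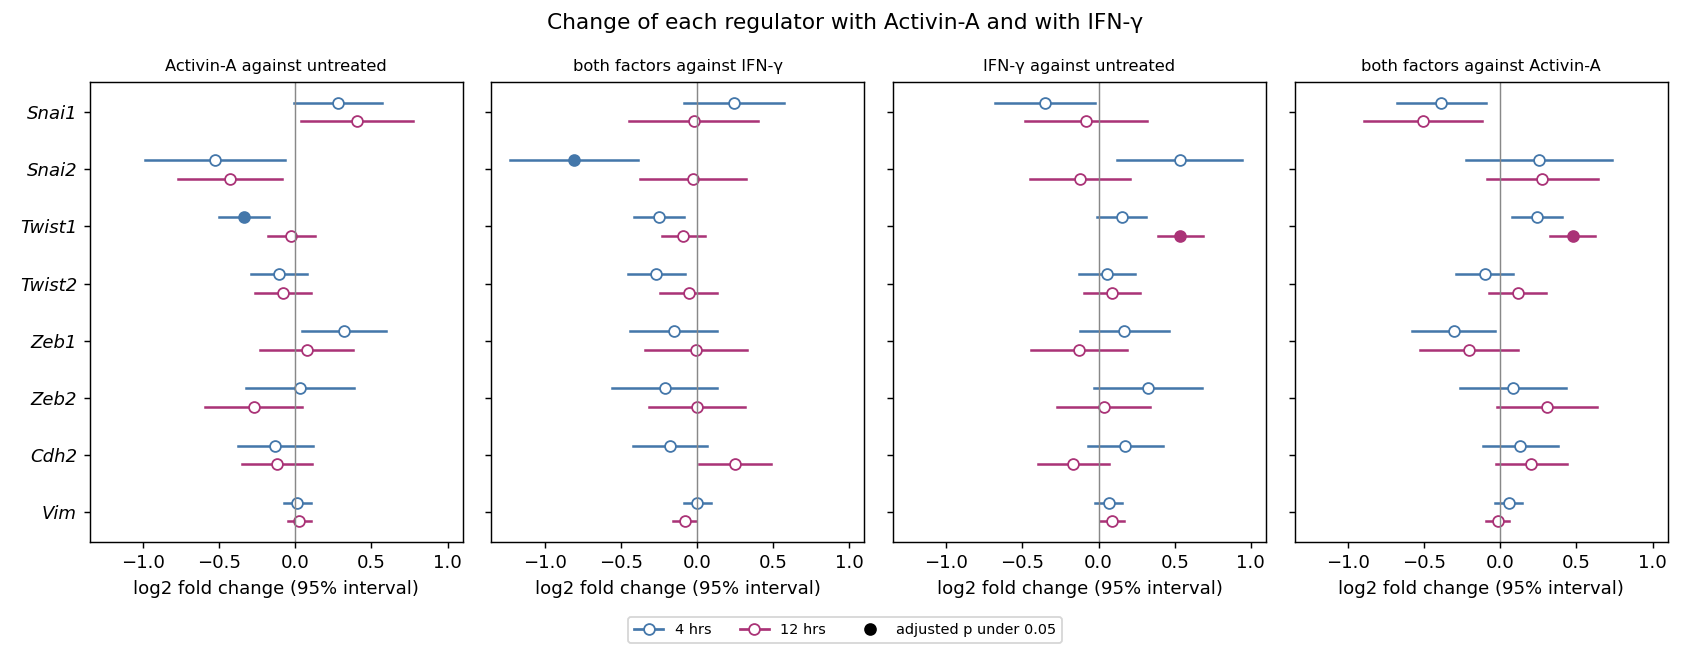
Log2 fold change (horizontal axis) of each regulator with its 95% interval at 4 hrs (blue) and 12 hrs (purple) for Activin-A and for IFN-γ, each without and with the other factor, over 4 wells per group, with filled points for an adjusted p under 0.05. Filled points are Twist1 with Activin-A at 4 hrs (-0.34), Snai2 with both factors against IFN-γ at 4 hrs (-0.81), and Twist1 with IFN-γ at 12 hrs, alone (0.54) and on top of Activin-A (0.48).

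The group mean of Snai1 was highest with Activin-A at 4 hrs (53.0 ± 4.41 CPM, SD, n = 4) and lowest with both factors at 12 hrs (28.0 ± 4.71 CPM). At 4 hrs its wells, in the order of their replicate numbers, read 42.2, 42.3, 37.3 and 53.0 CPM untreated, 56.7, 55.1, 46.7 and 53.5 CPM with Activin-A, 33.1, 34.0, 33.8 and 35.1 CPM with IFN-γ, and 44.3, 41.9, 40.0 and 36.1 CPM with both. All 4 IFN-γ wells lay below all untreated wells, and the both-factor wells lay above the IFN-γ wells and below the Activin-A wells without overlap. None of these single differences passed the test: the log2FC was 0.28 (SE 0.15, adjusted p = 0.47) for Activin-A, -0.35 (SE 0.16, adjusted p = 0.33) for IFN-γ and -0.39 (SE 0.15, adjusted p = 0.12) for both factors against Activin-A. When the effect of IFN-γ was averaged over wells without and with Activin-A, a contrast added after seeing the data, Snai1 fell by 0.37 on the log2 scale (SE 0.11, adjusted p = 0.021, where 2.69% of all genes were called lower), but with DESeq2 the adjusted p was 0.13, and it was 0.078 without replicate 4 of untreated and 0.052 without replicate 4 of both factors. At 12 hrs the wells ranged from 23.4 to 37.9 CPM untreated, 31.0 to 54.2 CPM with Activin-A, 21.6 to 34.6 CPM with IFN-γ and 21.5 to 32.6 CPM with both. All of these ranges overlapped. The log2FC of Activin-A at 12 hrs was 0.40 (SE 0.19, adjusted p = 0.36), and that of both factors against Activin-A was -0.51 (SE 0.20, adjusted p = 0.092). Both values leaned on replicate 2 of Activin-A, the highest well, without which Snai1 stood at 0.21 and -0.32 in the respective comparisons, and leaving out any single well gave 0.21 to 0.58 for Activin-A and -0.59 to -0.32 for both factors against it.

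Snai2, which shares its DNA-binding fingers with Snai1, stood lowest where Snai1 stood highest. At 4 hrs it read 29.9, 26.0, 20.9 and 27.0 CPM untreated, 25.7, 16.8, 13.2 and 13.6 CPM with Activin-A, 38.0, 49.7, 26.5 and 32.6 CPM with IFN-γ, and 21.1, 20.5, 19.0 and 25.3 CPM with both. All 4 wells with both factors lay below all 4 wells with IFN-γ alone, and Snai2 fell by 0.81 on the log2 scale between them (SE 0.21, adjusted p = 0.043). This call rested on few counts, 18 to 57 per well: the adjusted p was 0.30 with DESeq2, and it rose above 0.05 in 6 of the 8 fits that left out a well, to between 0.058 and 0.38, the last without replicate 2 of IFN-γ (log2FC -0.60). With Activin-A alone the log2FC was -0.53 (SE 0.23, adjusted p = 0.34), and -0.88 (adjusted p = 0.073) without replicate 1 of Activin-A, the well that stood apart and that held the highest Snai2 of its group. Averaged over wells without and with IFN-γ, again a contrast added later, Activin-A lowered Snai2 at 4 hrs by a log2FC of -0.67 (SE 0.16, adjusted p = 0.0048, 3.62% of all genes called), and this call held with DESeq2 (adjusted p = 0.033) and in each of the 16 fits that left out a well (adjusted p 0.00019 to 0.035). At 12 hrs edgeR gave -0.43 for Activin-A alone (SE 0.17, adjusted p = 0.25). On top of IFN-γ it gave -0.03 (SE 0.18, adjusted p = 0.99), or -0.19 to 0.12 with a well left out. The averaged effect at 12 hrs was -0.23 (SE 0.12, adjusted p = 0.42). For IFN-γ against untreated at 4 hrs the log2FC was 0.53 (SE 0.20, adjusted p = 0.16), or 0.33 to 0.63 with a well left out.

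Snai2 was also higher at 12 hrs than at 4 hrs. Each time had its own wells, so that here and below time in culture, cell density and handling cannot be told apart. In untreated cells Snai2 read 20.9 to 29.9 CPM at 4 hrs and 38.5 to 51.4 CPM at 12 hrs, without overlap, a difference of 0.83 on the log2 scale (SE 0.19, adjusted p = 0.0024). It was higher by 0.93 (SE 0.22, adjusted p = 0.0019, 6.97% of all genes called) in Activin-A treated cells and by 0.96 (SE 0.21, adjusted p = 0.00069, 7.10% of all genes called) in cells given both factors, comparisons that were added after seeing the data. In the Activin-A comparison the value was 1.27 without replicate 1 of Activin-A at 4 hrs. With IFN-γ alone, where Snai2 already stood at 26.5 to 49.7 CPM at 4 hrs, the difference between times was 0.18 (SE 0.18, adjusted p = 0.63), or 0.074 without replicate 3 to 0.38 without replicate 2 of IFN-γ at 4 hrs, and 8.41% of all genes but 0 of 8 regulators were called there by edgeR and by DESeq2, with 2 regulators at an unadjusted p under 0.05. Whether the effect of IFN-γ on Snai2 changed with time was tested directly, and the difference of -0.64 (SE 0.27, adjusted p = 0.51) did not pass. Snai1 went the other way in untreated cells, with a log2FC of -0.54 between 12 hrs and 4 hrs (SE 0.17, adjusted p = 0.051), which lay just outside the threshold and passed it without replicate 1 of untreated at 12 hrs (adjusted p = 0.022), without replicate 3 of untreated at 4 hrs (0.043) and in a fit of those 8 wells alone (0.044).

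**Figure D3:**
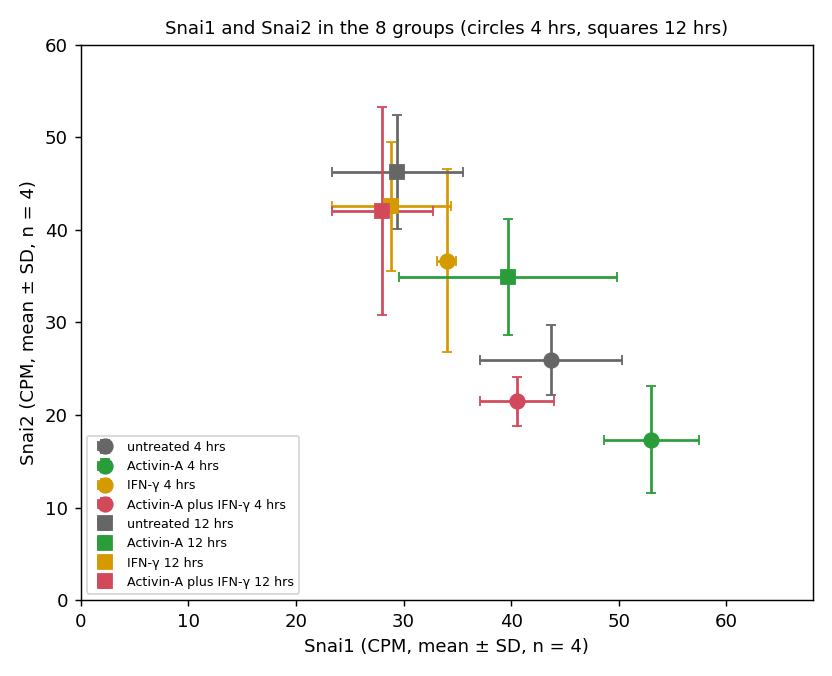
Mean Snai1 (horizontal) against mean Snai2 (vertical) in the 8 groups, in CPM with SD bars over 4 wells, with circles for 4 hrs and squares for 12 hrs. Activin-A at 4 hrs lies at 53.0 CPM Snai1 and 17.3 CPM Snai2, and untreated cells at 12 hrs at 29.4 and 46.2 CPM.

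Twist1 was lowered by Activin-A at 4 hrs and raised by IFN-γ at 12 hrs. At 4 hrs the wells read 325, 313, 355 and 331 CPM untreated, 274, 216, 258 and 283 CPM with Activin-A, 327, 342, 432 and 368 CPM with IFN-γ, and 308, 325, 300.0 and 297 CPM with both. The 4 wells with Activin-A alone lay below all other 12 wells of that time. Against untreated cells Twist1 fell by 0.34 on the log2 scale (SE 0.08, adjusted p = 0.014; DESeq2 0.034), and the call was kept without the deep replicate 1 (adjusted p = 0.0047) but was lost without replicate 2 of Activin-A (log2FC -0.27, adjusted p = 0.091), the shallowest library, and without replicate 3 of untreated (log2FC -0.30, adjusted p = 0.086). On top of IFN-γ the same factor gave a log2FC of -0.25 (SE 0.08, adjusted p = 0.16), again without overlap of the wells, and the interaction of the factors was 0.09 (SE 0.11, adjusted p = 0.97). The effect of Activin-A averaged over wells without and with IFN-γ was -0.29 at 4 hrs (SE 0.06, adjusted p = 0.00046) and was called in every alternative and in all 16 fits without a well.

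At 12 hrs Twist1 read 257, 241, 264 and 238 CPM in untreated wells and 240.2, 237, 240.0 and 273 CPM with Activin-A. With IFN-γ it read 349, 407, 367 and 335 CPM, and with both factors 321, 366, 371 and 310.0 CPM. The 8 wells with IFN-γ all lay above the 8 wells without it, and inside either set the wells with and without Activin-A overlapped. Twist1 rose with IFN-γ by 0.54 on the log2 scale (SE 0.07, adjusted p = 2.8e-09), with both factors against Activin-A by 0.48 (SE 0.08, adjusted p = 3.2e-07) and with both factors against untreated by 0.45 (SE 0.07, adjusted p = 1.2e-06), and each of these held with DESeq2 and without any single well. The averaged effect of IFN-γ at 12 hrs was 0.51 (SE 0.05, adjusted p = 3.0e-14), where 14.9% of all genes were called. The log2FC of Activin-A at 12 hrs was -0.03 (SE 0.08, 95% interval -0.18 to 0.13).

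Twist1 was lower at 12 hrs than at 4 hrs in untreated cells. The separate wells of each time read 313 to 355 CPM at 4 hrs and 238 to 264 CPM at 12 hrs, lower by 0.40 on the log2 scale (SE 0.08, adjusted p = 0.00027), whereas IFN-γ wells averaged 367 CPM at 4 hrs and 365 CPM at 12 hrs. At 4 hrs the log2FC of IFN-γ was 0.15 (SE 0.08, adjusted p = 0.41), or 0.079 without replicate 3 of IFN-γ, the highest well. Averaged over wells without and with Activin-A it was 0.20 (SE 0.06, adjusted p = 0.017, 6.30% of all genes called higher), a call that DESeq2 did not make (adjusted p = 0.050) and that was lost without replicate 2 of Activin-A (0.055), replicate 3 of IFN-γ (0.079) or replicate 2 of both factors (0.052). The direct test of the IFN-γ effect at 12 hrs minus that at 4 hrs gave 0.40 (SE 0.11, adjusted p = 0.076), which did not pass, and reached 0.020 without replicate 3 of IFN-γ at 4 hrs and 0.048 without replicate 4 of IFN-γ at 12 hrs. For Activin-A the corresponding difference was 0.32 (SE 0.11, unadjusted p = 0.0068, adjusted p = 0.73).

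Twist2 encodes a close relative of Twist1, and it was not called in any comparison. Its group means lay between 148 ± 23.8 CPM (SD, n = 4) with Activin-A at 12 hrs and 191 ± 21.3 CPM with IFN-γ at 4 hrs. With IFN-γ at 12 hrs its wells read 158, 157, 165 and 188 CPM against 158, 161, 149 and 164 CPM untreated, an overlap, and the log2FC was 0.09 (SE 0.09, 95% interval -0.09 to 0.27), where the interval of Twist1 ran from 0.39 to 0.68. The difference between these 2 genes was not tested. The lowest adjusted p of Twist2 in a comparison of treatments was 0.12, for the averaged effect of Activin-A at 4 hrs (log2FC -0.19, SE 0.07).

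The bases before the start sites of Twist1, Twist2 and Snai1 are shown because Twist1 and Twist2 are relatives with unlike values here and Snai1 holds a motif that its own family binds. The sequences are RefSeq's for GRCm38.p6, an earlier build than the GRCm39 named in the submitters' processing notes, and cover the 250 bases before the start site on the plus strand (Twist1 chr12:33957421-33957670, Twist2 chr1:91801211-91801460, Snai1 chr2:167537945-167538194). Capitals mark matches on either strand to TTCNNNGAA (the GAS element, known from IFN-γ responsive genes), CAGAC (an element bound by Smad3 and Smad4), CAGGTG (the E2 box bound by Snail, Zeb and some helix-loop-helix factors) or the core of the interferon response element (GAAA, any 2 bases and GAAA).
Twist1: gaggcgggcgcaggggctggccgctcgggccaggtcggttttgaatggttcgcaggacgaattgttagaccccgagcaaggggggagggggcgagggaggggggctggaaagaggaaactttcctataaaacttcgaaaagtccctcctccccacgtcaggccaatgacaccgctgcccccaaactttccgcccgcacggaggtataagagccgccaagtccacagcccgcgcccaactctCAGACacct
Twist2: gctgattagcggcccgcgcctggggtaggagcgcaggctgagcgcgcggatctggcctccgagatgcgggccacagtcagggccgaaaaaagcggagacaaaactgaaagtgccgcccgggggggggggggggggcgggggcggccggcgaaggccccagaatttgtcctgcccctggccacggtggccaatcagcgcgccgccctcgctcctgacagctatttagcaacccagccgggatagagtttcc
Snai1: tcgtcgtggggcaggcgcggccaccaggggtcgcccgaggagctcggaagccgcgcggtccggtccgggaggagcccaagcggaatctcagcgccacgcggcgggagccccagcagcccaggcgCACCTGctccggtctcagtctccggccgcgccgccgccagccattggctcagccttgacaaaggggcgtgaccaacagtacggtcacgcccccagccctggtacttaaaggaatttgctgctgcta
Twist1 held 1 CAGAC, beginning at position -9 from the start site, an element found in 42.2% of all 32851 promoters of that length. Twist2 held none of the 4 motifs. Snai1 held 1 E2 box, read as CACCTG on the strand printed, at position -126, a motif in 17.2% of all promoters. GAS elements were found in 7.02% and the interferon core in 2.98% of promoters, and neither was found in these 3 windows. Of the other regulators Vim and Zeb2 had an entry, Vim with no match, and 2 overlapping windows among the 4 start sites of Zeb2 shared a single GAS match, TTCTGTGAA, at position -147 or -173. These matches describe letters only and binding was not measured.

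Zeb1 and Zeb2 did not pass the test in any comparison. Zeb1 read 58.9, 44.3, 48.3 and 52.0 CPM in untreated wells at 4 hrs and 65.3, 61.2, 60.8 and 66.2 CPM with Activin-A. These wells did not overlap, but the log2FC of 0.32 (SE 0.14, unadjusted p = 0.023) had an adjusted p of 0.32. With both factors the wells lay at 43.2 to 56.8 CPM, below those with Activin-A alone. With IFN-γ alone they lay at 50.0 to 71.0 CPM, a log2FC of 0.17 against untreated (SE 0.15, adjusted p = 0.70). The interaction of the factors was -0.48 (SE 0.20, unadjusted p = 0.020, adjusted p = 0.82). At 12 hrs the group means of Zeb1 lay between 43.8 ± 4.08 and 51.1 ± 8.74 CPM (SD, n = 4) and all wells overlapped.

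Zeb2 read 27.3, 39.4, 38.4 and 38.0 CPM untreated at 4 hrs, and 44.1, 43.6, 50.0 and 41.1 CPM with IFN-γ. The IFN-γ wells lay above the untreated wells, with a log2FC of 0.32 (SE 0.18, adjusted p = 0.43), or 0.20 without replicate 1 of untreated, the lowest well. At 12 hrs it read 50.3, 45.7, 40.7 and 42.1 CPM untreated and 39.4, 34.8, 40.3 and 34.7 CPM with Activin-A. There the Activin-A wells lay below the untreated wells and the log2FC was -0.27 (SE 0.16, adjusted p = 0.55). Wells with both factors at 12 hrs read 40.7 to 54.8 CPM, above those with Activin-A, at a log2FC of 0.31 (SE 0.16, adjusted p = 0.29).

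Cdh2, the cadherin of mesenchymal and neural cells, moved little. Its wells at 4 hrs lay between 74.7 and 90.9 CPM untreated, 61.2 and 81.2 CPM with Activin-A, 89.1 and 99.4 CPM with IFN-γ, and 71.8 and 105 CPM with both. At 12 hrs they read 86.6, 87.8, 88.1 and 88.9 CPM untreated, 75.2, 79.5, 82.1 and 76.5 CPM with IFN-γ, and 88.1, 93.5, 85.2 and 106 CPM with both factors. With Activin-A alone they ranged from 69.9 to 89.2 CPM. The IFN-γ wells lay below the untreated and the both-factor wells without overlap, but overlapped the Activin-A wells. The log2FC was -0.17 (SE 0.12, adjusted p = 0.50) for IFN-γ against untreated and 0.25 (SE 0.12, adjusted p = 0.44) for both factors against IFN-γ. The interaction at 12 hrs was 0.37 (SE 0.17, unadjusted p = 0.028, adjusted p = 0.69). With Activin-A alone the log2FC was -0.13 (95% interval -0.38 to 0.12) at 4 hrs and -0.12 (95% interval -0.35 to 0.11) at 12 hrs. With a well left out these values moved to -0.070 at 4 hrs without replicate 2 of Activin-A, -0.083 without replicate 4 of untreated, and -0.035 at 12 hrs without replicate 1 of Activin-A.

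Vim was the most abundant gene by counts in all 32 wells, with 1.49% to 1.73% of the total, and it was also the most precisely measured regulator. With Activin-A its log2FC was 0.01 (SE 0.04, 95% interval -0.08 to 0.10) at 4 hrs and 0.03 (SE 0.04, 95% interval -0.05 to 0.10) at 12 hrs. At 12 hrs the wells with IFN-γ alone read 17280.0, 16596, 16775 and 16999 CPM, above 15321, 15708, 16563 and 15965 CPM untreated and above 16211, 16482, 15798 and 15517 CPM with both factors. The differences were small, a log2FC of 0.09 (SE 0.04, adjusted p = 0.17) for IFN-γ and -0.08 (SE 0.04, adjusted p = 0.45) for both factors against IFN-γ. At 4 hrs the wells with both factors, between 15985 and 16411 CPM, lay above the untreated ones, between 15183 and 15717 CPM, at a log2FC of 0.07 (SE 0.04, adjusted p = 0.49).

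Whether the factors modified each other, and whether their effects changed with time, was tested in 5 contrasts, and 0 of 40 values of the regulators passed edgeR's test, 8 having an unadjusted p under 0.05 and the lowest adjusted p being 0.076. DESeq2 called 0 as well, and gave no adjusted p for 4 of them. Among all genes the interaction was called for 0% at 4 hrs and 0.0111% at 12 hrs. The difference between 12 hrs and 4 hrs was called for 0.0214% of genes for Activin-A, 0.579% for IFN-γ and 0.0964% for Activin-A on top of IFN-γ. The averaged effect of Activin-A at 12 hrs was called for 0 of 8 regulators by both tools, with 0 at an unadjusted p under 0.05, where 3.88% of all genes were called.

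Genes that work with the regulators were read from lists chosen with earlier results of these data known. Of 15 tested EMT-linked transcription factors other than the members, 1 rose with Activin-A at 4 hrs and 2 at 12 hrs, where 1.05% and 1.25% of all genes rose, namely Klf4 at both times (log2FC 0.41 and 0.36, at 4 hrs with an adjusted p of 0.025 by edgeR and 0.15 by DESeq2) and Sox4 at 12 hrs (0.49). With IFN-γ, Prrx1, a homeobox factor of mesenchyme, rose at 4 hrs (0.57, SE 0.08) and at 12 hrs (0.79, adjusted p = 3.5e-15), from 163 to 201 CPM untreated to 291 to 313 CPM at 12 hrs, and Sox4 fell by 0.49 at 4 hrs and by 0.44 at 12 hrs (DESeq2 0.077 at 12 hrs). These 2 genes were the ones called in the list with IFN-γ, at times when 4.29% and 6.43% of all genes rose and 0.766% and 2.82% fell, shares that also stand beside the IFN-γ counts of the next lists. Median log2FC of the list lay between -0.07 and 0.11 in these 4 comparisons. The list was not split into factors that further and that oppose the transition, so that its counts and median give no direction. Among 15 corepressors and chromatin partners of Snail and Zeb, 0 were called with Activin-A at either time, by edgeR or DESeq2, with 2 and 4 at an unadjusted p under 0.05 at 4 hrs and 12 hrs, and with IFN-γ only Parp1 was, at 12 hrs (log2FC -0.36, adjusted p = 0.034; DESeq2 0.19). Among 10 genes of Snail protein turnover, Pak1, a kinase that phosphorylates Snail, rose with IFN-γ at 4 hrs (1.39, SE 0.19) and 12 hrs (1.11), from 16.7 to 21.2 CPM in untreated wells to 44.5 to 57.3 CPM with IFN-γ at 4 hrs.

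Adhesion and filament genes beside Cdh2 and Vim included DEGs of both factors. Cdh6, another cadherin of mesenchymal and neural crest cells, rose with Activin-A at 4 hrs (log2FC 1.13, adjusted p = 1.6e-06), at 12 hrs (1.18, adjusted p = 3.2e-04) and on top of IFN-γ at 4 hrs (1.1). On top of IFN-γ at 12 hrs its log2FC was 0.92 (SE 0.28, adjusted p = 0.099), and the wells overlapped there. Its wells lay at 32.5 to 37.0 CPM untreated and 58.2 to 92.5 CPM with Activin-A at 4 hrs. Only 2 of the 9 listed cadherins other than members were tested. The shares of all genes that rose and fell with Activin-A were 1.05% and 0.591% at 4 hrs and 1.25% and 1.16% at 12 hrs, to be set beside the counts of these lists. Of 9 tested catenins and cadherin partners, Vcl (vinculin) rose with Activin-A at 4 hrs (0.32; DESeq2 adjusted p = 0.16) and none was called with it at 12 hrs by either tool, with 2 at an unadjusted p under 0.05, and with IFN-γ at 12 hrs Ptpn14 rose (0.51; DESeq2 0.11) and Ctnnal1 fell by 1.67 (DESeq2 0.058). Of 25 epithelial junction and keratin genes 10 had rows and 2 were tested. With Activin-A edgeR called 1 of these 2 higher at 12 hrs, where DESeq2 called 0. At 4 hrs both tools called 0 with Activin-A, with 1 at an unadjusted p under 0.05 by edgeR. With IFN-γ 0 were called at either time by either tool. Of 7 intermediate filament genes other than Vim and the keratins, Nefl and Nefm, which encode neurofilament subunits, fell with each factor at each time: Nefl by 0.74 and 0.98 with Activin-A and by 0.55 and 1.12 with IFN-γ at 4 hrs and 12 hrs, and Nefm by 0.88, 0.80, 0.64 and 0.90 in the same order (DESeq2 0.20 for IFN-γ at 4 hrs). The well ranges of Nefl at 12 hrs were 646 to 702 CPM untreated, 306 to 369.5 CPM with Activin-A, 283 to 335 CPM with IFN-γ and 195 to 212 CPM with both factors, with overlap only between the single factors.

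Mesenchymal products rose with Activin-A more often than they fell. Of 15 tested, 6 rose and 0 fell at 4 hrs (median log2FC 0.26, where 1.05% of all genes rose and 0.591% fell) and 6 rose and 1 fell at 12 hrs (median 0.19, with 1.25% and 1.16% of all genes). The 1 that fell was Tgfbi (-0.35; DESeq2 0.13), named after its value was seen. Ccn2, a matricellular Smad and Yap target, rose by 1.77 and 1.88, Col5a2 by 0.50 and 1.07 and Itgb1 by 0.24 and 0.44 at the respective times, and Acta2 by 0.66 at 12 hrs. With IFN-γ 0 of 15 were called at 4 hrs by edgeR, with 4 at an unadjusted p under 0.05 and 1 called by DESeq2 (Sparc, 0.025), where 4.29% of all genes rose and 0.766% fell. At 12 hrs 5 fell (median -0.23), where 2.82% of all genes fell: Col3a1 (-0.88), Col5a2 (-0.48), Sparc (-0.47), Acta2 (-0.29) and Itgav (-0.31; DESeq2 0.20, named after its value was seen). Both factors against IFN-γ raised 4 at 4 hrs and raised 3 and lowered 1 at 12 hrs, beside 0.558% of all genes higher at 4 hrs and 0.457% higher and 0.568% lower at 12 hrs. On top of Activin-A at 4 hrs, IFN-γ lowered 5 of the 15 by edgeR and 2 by DESeq2, and raised 0 (median log2FC -0.21). In that comparison edgeR called 6.07% of all genes in either direction. Col5a2 read 102 to 129 CPM untreated, 218 to 241 CPM with Activin-A, 58.3 to 98.1 CPM with IFN-γ and 119 to 153 CPM with both at 12 hrs.

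**Figure D4:**
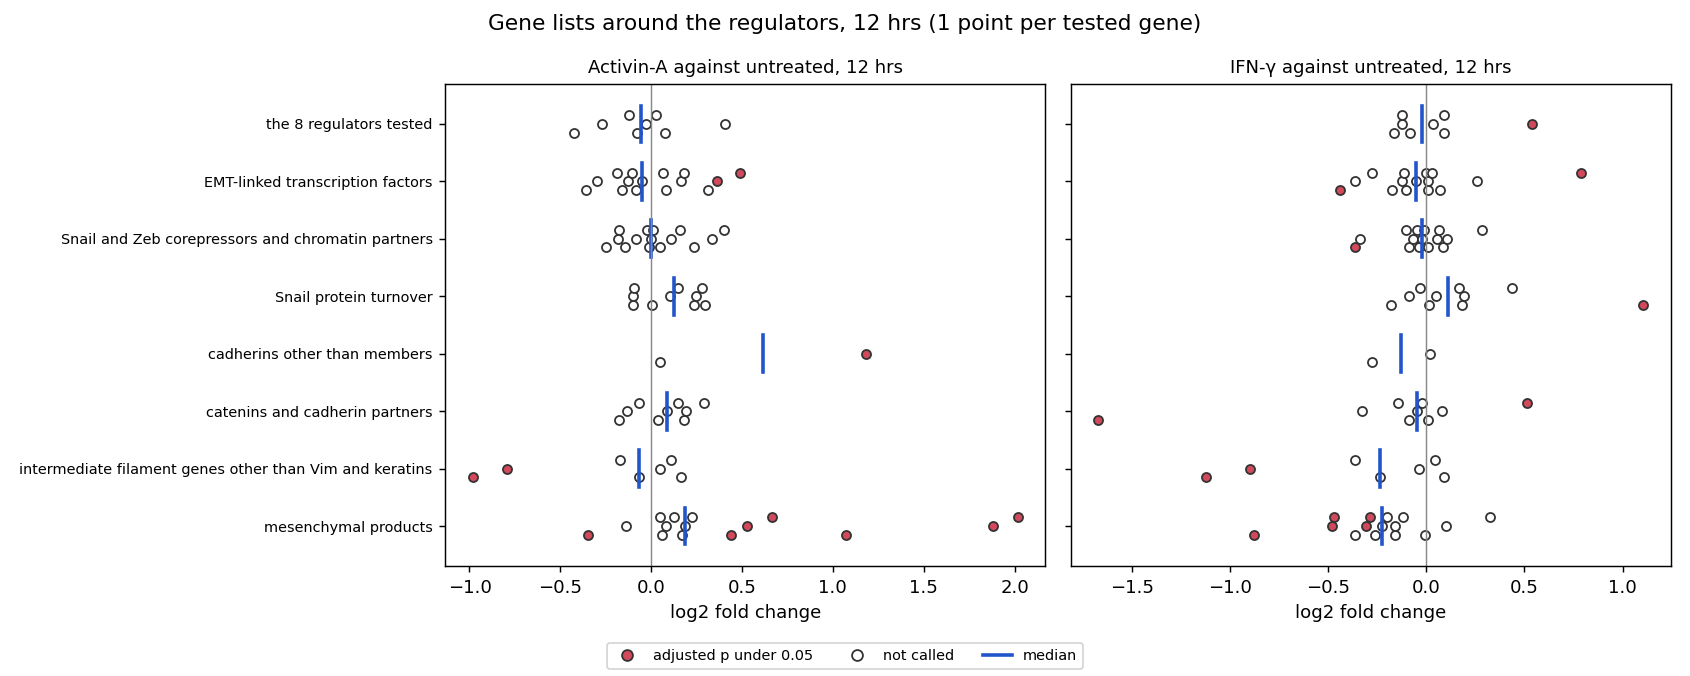
Log2 fold change at 12 hrs (horizontal axis) of every tested gene of each list, other than the epithelial genes, with Activin-A (left) and IFN-γ (right), 1 point per gene, red for an adjusted p under 0.05, with the list's median as a blue line. Mesenchymal products hold 6 red points above 0 with Activin-A and 5 below 0 with IFN-γ, while Twist1 is the only red point among the 8 regulators, with IFN-γ. Of the 2 tested epithelial genes, which are not drawn, edgeR called 1 higher with Activin-A and 0 with IFN-γ.

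The genes whose log2 CPM followed a regulator most closely over the 32 wells were listed by Pearson's r among 8627 genes with a mean count of at least 10, as a description without a test, since wells share their treatment and depth. For Twist1 these were Bmp2 (0.84), Pgrmc1 (0.83) and Prrx1 (0.81). For Snai1 they were Ncs1 (0.79), Dusp5 (0.78), a phosphatase of Erk, and Ank (0.77), and for Snai2 Eid1 (0.76), Phf10 (0.75) and Gpt2 (0.74). Twist2 was followed by Cops3 (0.81), Cnot11 (0.69) and Stc1 (0.68), Zeb1 by Pofut2 (0.71), Ier2 (0.70) and Vasn (0.70), and Zeb2 by Pola2 (0.66), Serhl (0.65) and Ehmt2 (0.65). For Cdh2 they were Mpp5 (0.60), Rbbp9 (0.58) and Gart (0.58) and for Vim Dhrs7 (0.71), Amigo2 (0.67) and Plscr3 (0.67). No regulator was among the 3 genes closest to another one.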

How the data were processed

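BRB-seq, in which each sample's cDNA is barcoded, pooled and sequenced from transcript 3′ ends, was run on 32 wells of YUMM3.3 cells. The authors deposited raw counts per gene, whole numbers without normalization. The submitters' processing notes name STAR 2.7.10b, featureCounts, DESeq2 1.36.0 and GRCm39 (mm39), and the handling of unique molecular identifiers is not given in the sources used here, so that intervals cover counting and well error only. The 12451 genes were matched to symbols in GENCODE M21 of GRCm38, and 14 had none. No run of 50 bases in the last 500 transcript bases of a regulator occurred in another gene, and genes that overlap Twist2, Zeb1, Zeb2 and Cdh2 had no row.

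Genes were filtered with filterByExpr, normalized by TMM and tested by edgeR 4.0.16 (glmQLFit and glmQLFTest, R 4.3.3) over the 16 wells of a time point (9137 genes at 4 hrs, 8971 at 12 hrs) or all 32 (9332 genes) for contrasts of times, with Benjamini-Hochberg adjustment over all genes and a threshold of 0.05. An interaction is the log2FC of Activin-A on top of IFN-γ minus that of Activin-A alone. log2 CPM used a prior count of 2. The members and lists were chosen with earlier results of these data known. Named were all members, up to 4 DEGs per list for Activin-A, up to 3 for IFN-γ, a few control genes such as Ccn2 and Irf1, and the 3 genes most like each member. Some genes that this rule names are not reported here. Alternatives were DESeq2 1.42.0's Wald test, which the study used, RLE size factors, no filter, at least 10 counts in every sample, a replicate block, all 32 or only 8 samples in a fit, an adjusted p under 0.01 and leaving out each well. Averaged effects of a factor and contrasts of times within treatments were chosen after seeing the data. On simulated data, edgeR recovered 45 of 100 genes changed by 0.5 and 82 of 100 changed by 1 on the log2 scale at 4 hrs among 9103 genes, with 12 false calls, and 53 and 89 at 12 hrs among 8921 genes, with 2. Python 3.11.15 drew the plots.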

Additional observations from a re-analysis of the deposited data

Results flagged for a closer look

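In 64 groups of 4 wells, a regulator's highest or lowest well was compared with its neighbour by Dixon's ratio, the gap divided by the range, against its 95% critical value, which chance exceeds in about 1 of 20 groups. It was exceeded in 2. Twist1 in replicate 4 of Activin-A at 12 hrs read 273 CPM where the other wells read 237 to 240.2 CPM (ratio 0.911). Zeb2 in replicate 1 of untreated at 4 hrs read 27.3 CPM where the others read 38.0 to 39.4 CPM (ratio 0.878).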

How the results depend on the processing

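Of 1336 values of the regulators under other settings, 1328 kept their side of the threshold, as did 2026 of 2048 with a well left out, and none of the 14 called values changed sign in any of these fits. Signs of uncalled values changed for 2 values under other settings and 42 without a well. DEGs among the regulators went from 1 to 0 at an adjusted p under 0.01 for Activin-A at 4 hrs, from 1 to 0 for both factors against IFN-γ at 4 hrs with DESeq2 and at 0.01, and from 2 to 0 with DESeq2 and at 0.01 for the averaged effect of IFN-γ at 4 hrs. Leaving out wells gave 0 to 1 DEGs for Activin-A, both factors against IFN-γ and both factors against Activin-A at 4 hrs and for the IFN-γ effect at 12 hrs minus 4 hrs, 2 to 3 for untreated cells between times, 1 to 4 for the averaged effect of IFN-γ at 4 hrs (4 without replicate 1 of Activin-A, when Snai2 and Vim joined) and 1 to 2 for Activin-A at 12 hrs against 4 hrs (2 without replicate 2 of Activin-A at 12 hrs). The cause was not tested. All 184 values were kept with at least 10 counts in every sample.

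The number of genes called was lower with DESeq2 than with edgeR: 84 against 150 for Activin-A, 44 against 74 for both factors against IFN-γ at 4 hrs, and at 12 hrs 136 against 216, 61 against 92 for the same 2 comparisons, 549 against 863 for both against Activin-A and 581 against 883 for both against untreated, with 284 against 457 for untreated cells between times, 410 against 650 for Activin-A and 501 against 785 for IFN-γ. The averaged effect of Activin-A gave 174 against 331 at 4 hrs and 180 against 348 at 12 hrs, and its effect at 12 hrs minus 4 hrs 1 against 2 without and 3 against 9 with IFN-γ. At an adjusted p under 0.01, 86 genes remained called for Activin-A at 4 hrs, 40 and 51 for both factors against IFN-γ at 4 hrs and 12 hrs, 558 for both against Activin-A at 12 hrs, 234 for untreated cells, 359 for Activin-A, 434 for IFN-γ and 361 (against 663) for both factors between times, 171 and 185 for the averaged effect of Activin-A at 4 hrs and 12 hrs, and 32 (against 54) for the effect of IFN-γ at 12 hrs minus 4 hrs. With 8 samples in the fit, both factors against IFN-γ at 4 hrs gave 120 and Activin-A between times 423, and without a filter the interaction at 12 hrs gave 8 against 1. Between 18 and 57 counts per well lay behind the Snai2 comparison at 4 hrs, and the SE of a log2FC between 2 groups at 4 hrs was 0.20 to 0.24 for Snai2 against 0.04 for Vim.

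The labels give the wells of all groups the same replicate numbers. Same-numbered wells did not deviate together over all genes (mean r -0.00023, lowest -0.089, highest 0.042, and 6 of 32 wells closest to their own number). The labels do not say how wells were numbered, and this check cannot show whether same-numbered wells shared a position or handling. With the replicate number as a block, 0 of 184 values of the regulators changed side, the DEGs among them stayed at 1 for Activin-A at 4 hrs, 1 for both factors against IFN-γ at 4 hrs, 1 for IFN-γ at 12 hrs and 2 for untreated cells between times, and counts over all genes changed by a factor of 0.926 to 1.05 in the 19 comparisons with over 20 calls. In the other 4, which had 0 to 9 calls, the count changed only for the effect of Activin-A on top of IFN-γ at 12 hrs minus 4 hrs, from 9 to 6.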
